A study of Mus musculus with 2 samples.

Results

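The 9 heat shock genes described here are Hspa1a, Hspa1b, Hspa8, Hsph1, Dnajb1, Hsp90aa1, Hsp90ab1, Hspe1 and Hspd1. They were taken by symbol from the gene table shared by both libraries, which holds 31253 genes, and each of the 9 symbols matched 1 gene. Their transcripts were counted in leukocytes from livers of mice with intrahepatic cholangiocarcinoma (iCCA), which arises from bile duct epithelium within the liver. To raise these tumours, C57BL/6 mice received by hydrodynamic injection transposon vectors for Myr-AKT, a membrane-bound active form of the kinase AKT, and for YAPS127A, a YAP that carries the S127A substitution and is not held back by Hippo signalling. All mice of both groups carried both oncogenes. The NAV group then received NAV2729, an inhibitor of ARF GTPases, at 30 mg/kg every other day for 7 days, beginning 7 days after the injection. The MOCK group went without NAV2729, and the labels do not say what these mice were given instead. The ages of the mice are not given in the sources used here.

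CD45+ cells were sorted after digestion of the livers with collagenase and hyaluronidase at 37 °C for 30 min, in both groups alike. They were read as 1 pooled BD Rhapsody library per group. The design text speaks of 6 tumours per pool and the protocol of 3, so how many animals stand behind each library is uncertain. The NAV library held 31454031 unique molecular identifiers (UMIs, 1 per captured transcript) in 10465 barcodes, with a median of 2169 per barcode. The MOCK library held 45976676 UMIs in 10863 barcodes, with a median of 3840. The libraries shared 5 barcode sequences. With 1 library per group no test between NAV and MOCK is possible, so every ratio describes these 2 libraries, and the 95% intervals given with values cover counting error only.

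Heat shock proteins are chaperones that keep proteins from aggregating and help them fold. HSP70 proteins (Hspa genes) bind unfolded stretches, HSP40 partners (Dnaj genes) start their ATP cycle, and HSP110 proteins (Hsph1) release the nucleotide again. HSP90 proteins finish the folding of kinases and receptors, and the HSP60 and HSP10 chaperonin folds proteins inside mitochondria. The transcription factor HSF1 raises the inducible members after heat or other protein damage by binding inverted GAA repeats in their promoters, while constitutive members are made in unstressed cells. Such genes are also known to be induced during warm enzymatic digestion of tissue, which all cells here went through.

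The genes lie on 6 mouse chromosomes in GENCODE vM21 (GRCm38, also called mm10), and all are protein coding. Hspa1a (chr17:34969190-34972156, minus strand) and Hspa1b (chr17:34956436-34959238, minus strand) are neighbouring copies, and Hspd1 (chr1:55077835-55088243, minus strand) and Hspe1 (chr1:55088132-55091307, plus strand) stand head to head. Hsp90ab1 is at chr17:45567775-45573271 (minus strand) and Hsp90aa1 at chr12:110690605-110702728 (minus strand). Hspa8 is at chr9:40800984-40810087 (plus strand), Dnajb1 at chr8:83608193-83612653 (plus strand) and Hsph1 at chr5:149614287-149636376 (minus strand).

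RefSeq promoter windows (GRCm38.p6, 250 bases before to 50 bases after the start) were on hand for 6 of the 9 genes, Hspa1a, Hspa1b, Hsph1, Dnajb1, Hspe1 and Hspd1, and were searched on both strands for the palindromic heat shock element pairs GAANNTTC and TTCNNGAA. GAANNTTC was in 7.86% of all 32851 windows and TTCNNGAA in 8.52%. A run of 3 alternating units, GAA, TTC and GAA or TTC, GAA and TTC, each 2 bases after the last, overlaps these pairs and was in 0.603%. The window of Hspe1, 1 of 2 windows of Hspd1 and both windows of Hsph1 held such a run. Those of Hspa1a and Hspa1b each held 1 GAANNTTC, and neither window of Dnajb1 held any of the 3 patterns. The stretches around the matches are shown because they belong to the inducible members whose levels differ most between the libraries and to the chaperonin pair that shares 1 site. Capitals mark the match (in Hspe1, 2 overlapping runs), and the letters run 5′ to 3′ on the strand of the gene.
Hspa1a (chr17:34972223-34972290, minus strand): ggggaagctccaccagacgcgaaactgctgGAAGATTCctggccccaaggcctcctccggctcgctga
Hspa1b (chr17:34959305-34959372, minus strand): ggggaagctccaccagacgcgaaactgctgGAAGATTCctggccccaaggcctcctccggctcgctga
Hspe1 (chr1:55088047-55088076, plus strand): ggccacggtccgTTCTAGAACCTTCCGGAA
Hsph1 (chr5:149636288-149636317, minus strand): gagtaaaatgctgcagaTTCTGGAAAGTTC
The Hspa1a and Hspa1b stretches are the same letter for letter, and their whole windows are alike at 296 of 300 positions. A match is a description of the letters and does not show that HSF1 bound there.

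The copies are also alike in their transcripts. Of the 60-base windows of the Hspa1a transcript, 56.3% occur in that of Hspa1b, but none of the windows in the last 500 bases of either does. Hspa1a held a share of 31.1% to 61.2% of the UMIs of both copies across classes in NAV (median 51.7%), and of 29.9% to 64.1% in MOCK (median 52.8%). How the counting assigned reads from the shared stretches is not given in the sources used here, so the split is uncertain. Of the windows in the last 500 bases of Hspa8, 81.4% also occur in transcripts of 9 other annotated genes. For Hspe1 this was 46.0%, with 3 other genes, and for Hsp90ab1 5.67%, with 1, so counts of these 3 genes may depend on how reads with several matches were treated.

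Cells were clustered without the 9 genes and without the chaperone and stress lists used below, because with them in, a macrophage-like cluster and an unnamed cluster were led by Hspa1a and Hspa1b. There were 12 classes with at least 50 cells in each library, and they are called "-like", since no protein was measured. Their own marker lists were higher in them than in any other of the 12 classes in both libraries, with 1 exception. For the macrophage list, macrophage-like cells came second to Kupffer-like cells (macrophages that live in the liver sinusoids). Cells per class ran from 108 to 1717 in NAV and from 80 to 2731 in MOCK, with 237 Kupffer-like cells in NAV and 847 in MOCK. The cDC2 marker Kcnk5 was at 0 in cDC2-like cells of both libraries. Ptprc, which encodes CD45, was at 566 to 1689 CPM (UMIs in 1000000 UMIs of the class) in NAV and at 548 to 1717 in MOCK over the 12 classes. Another 6 clusters of this size met no marker rule and are called by their leading genes. Those led by Il23a and Tnf, by Siglecf and Ccl3 and by Inhba and Ero1l were split from the same set of cells as the neutrophil-like clusters. They are not counted in the neutrophil-like class. With a stricter cell filter, clusters led by Il23a and Tnf and by Siglecf and Csf1 took the neutrophil name. In 5 classes the largest cluster was not the same in NAV and MOCK. The largest macrophage-like cluster was led by Arg1 and Gpnmb in NAV, with 684 of 1375 cells, and by Fcrls and Tmem119 in MOCK, with 928 of 2731. The largest classical monocyte-like cluster was led by Vcan and Ly6c2 in NAV and by Ms4a8a and Ccr2 in MOCK. For neutrophil-like cells it was led by Bnip3 and Hilpda in NAV and by Retnlg and Cstdc4 in MOCK, and for NK-like cells by Gzma and Prf1 in NAV and by Xcl1 and Klra7 in MOCK. Among CD8 T-like cells it was led by Cd8b1 and Sidt1 in NAV, with 59 of 206 cells, and by Cd226 and Cd8a in MOCK, with 27 of 129.

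Levels in CPM count molecules and are not divided by transcript length. All 9 genes had at least 20 UMIs over both libraries in each of the 12 classes. In all, they took 0.457% of the UMIs of the NAV library and 0.491% of those of the MOCK library. Within classes the genes did not move as 1 block. Hsph1 and Hsp90aa1 were higher in NAV in all 12 classes, Hspa1a and Hspa1b were higher in the macrophage, monocyte and dendritic cell classes, Hspa8 was lower in all 12 classes, and Hsp90ab1, Hspe1 and Hspd1 were within 1.5-fold in most. Of the 108 gene-by-class ratios, 45 were at least 1.5-fold higher in NAV, 14 at least 1.5-fold lower and 49 in between. Over all genes and the same classes, 10% of such ratios were at least 1.5-fold higher and 13.4% at least 1.5-fold lower. Under every alternative cell filter, clustering, scaling and depth that gave a value, 22 of the 45 stayed at least 1.5-fold higher and 10 of the 14 at least 1.5-fold lower. Those that stayed higher were 4 of 10 for Hspa1a, 7 of 9 for Hspa1b, 6 of 11 for Hsph1, 3 of 7 for Hsp90aa1 and 2 of 3 for Dnajb1, and none of the 2 for Hspe1 or the 3 for Hspd1. With the libraries clustered apart, cDC1-like cells gave no value.

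The same fold gives the background. Among all genes with at least 20 UMIs in a class, the share at least 1.5-fold higher in NAV was 4.78% in B-like, 12.7% in CD8 T-like, 5.96% in Kupffer-like, 10.1% in NK-like, 11.9% in cDC1-like and 7.86% in cDC2-like cells. It was 4.58% in classical monocyte-like, 8.25% in nonclassical monocyte-like, 8.51% in cycling-like, 11.4% in gd T/T17-like and 5.73% in macrophage-like cells. Neutrophil-like cells stood apart with 35.6%. The share at least 1.5-fold lower in NAV was 13.2% in B-like, 15.1% in CD8 T-like, 14.5% in Kupffer-like, 12.9% in NK-like, 15.3% in cDC1-like and 12.4% in cDC2-like cells, and 13% in classical monocyte-like, 12.3% in nonclassical monocyte-like, 16.8% in cycling-like, 14.3% in gd T/T17-like, 12.7% in macrophage-like and 8.96% in neutrophil-like cells.

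**Figure D1:**
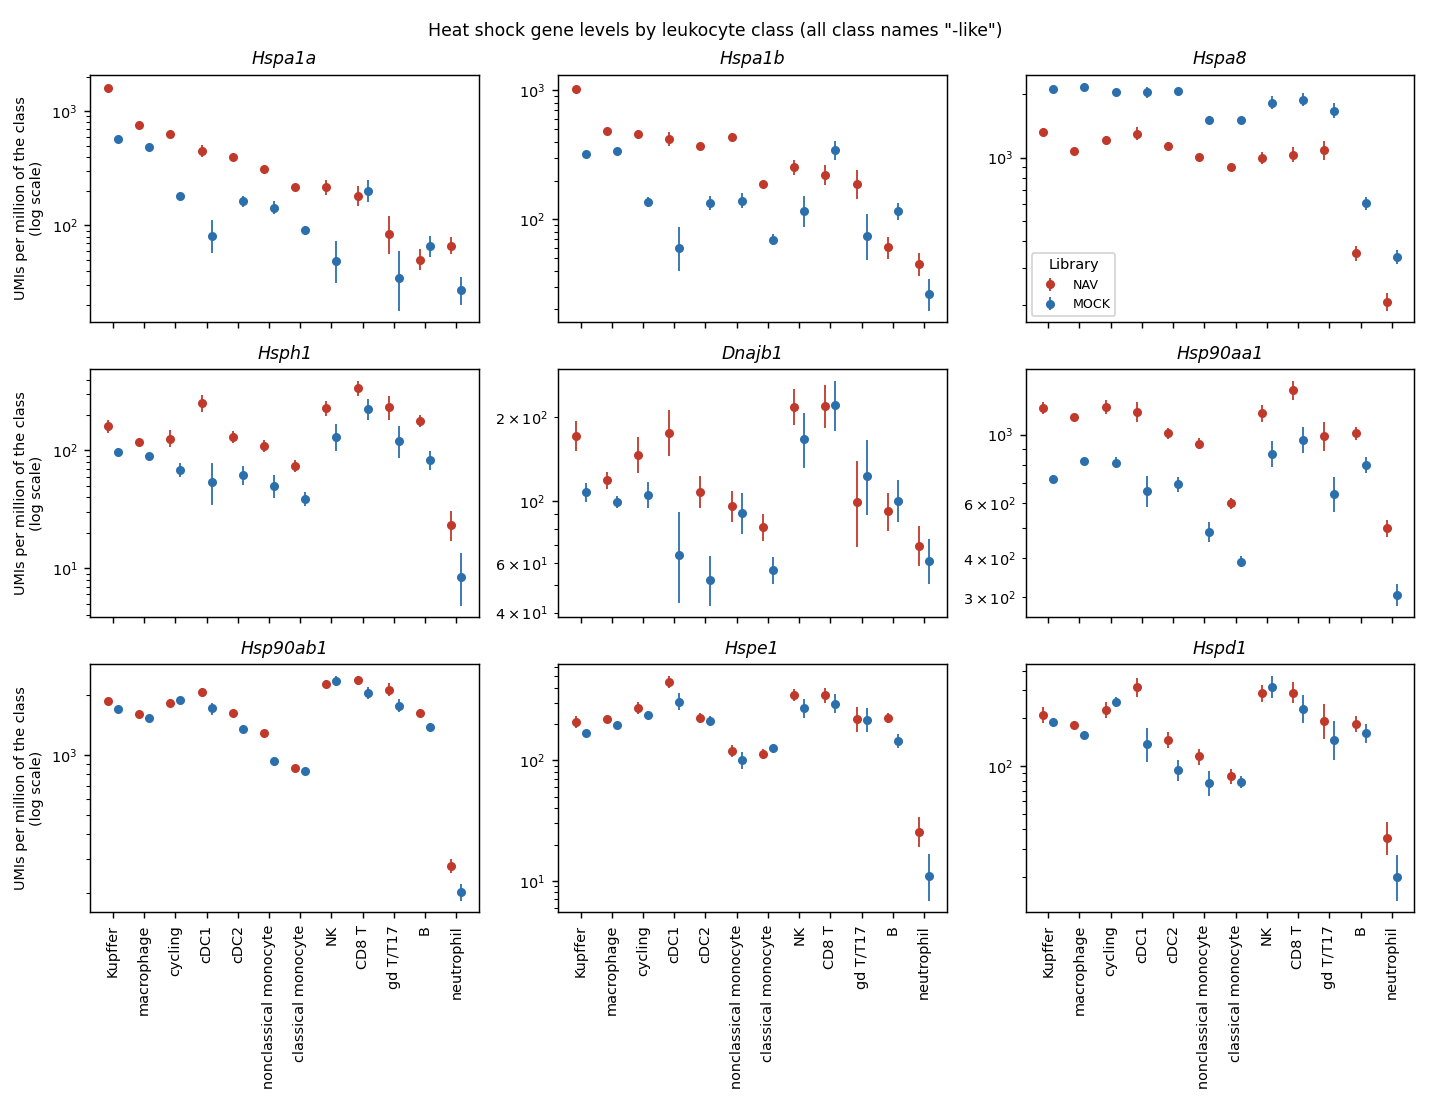
Level of each gene in CPM (log scale) in 12 leukocyte classes, NAV in red and MOCK in blue, with exact Poisson 95% intervals that cover counting error only. Hspa8 is lower in NAV in all 12 classes, Hsph1 and Hsp90aa1 are higher in NAV in all 12, and neutrophil-like cells are lowest in 8 of the 9 genes in NAV and in 8 of the 9 in MOCK.

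The inducible HSP70 gene Hspa1a was highest in Kupffer-like cells in both libraries. It stood at 1605 CPM in Kupffer-like cells in NAV and at 573 CPM in MOCK. Macrophage-like cells came second in both libraries, with 759.8 CPM in NAV and 487 CPM in MOCK, and the interval of this class lay apart from those of its neighbours in each library. At the other end of the order, gd T/T17-like, neutrophil-like and B-like cells held 84.3, 66.6 and 50.3 CPM in NAV, with overlapping intervals between neighbours. In MOCK these classes held 34.4, 27.2 and 66.0 CPM.

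Hspa1a was at least 1.5-fold higher in NAV in 10 of the 12 classes, and its interval lay above 0 in the same 10, neutrophil-like cells among them, where the direction depended on the clustering. Over all 4061 genes with at least 20 UMIs in every class, 0.123% were at least 1.5-fold higher in 10 or more classes. The log2 NAV/MOCK ratio of Hspa1a was 1.49 (1.41 to 1.56) in Kupffer-like cells, and 1.81 (1.65 to 1.97) in cycling-like cells, with 632 CPM in NAV and 180.4 CPM in MOCK. It was 2.46 (1.97 to 2.99) in cDC1-like cells, the dendritic cells that present antigen to CD8 T cells, on 448 CPM in NAV and 81.3 CPM in MOCK. These MOCK counts were 38 UMIs in 5 of 80 cells, 30 of them in 1 cell, so the interval, which takes UMIs as independent, is too narrow there. In cDC2-like cells the ratio was 1.30 (1.11 to 1.5), in nonclassical monocyte-like cells, which patrol vessels, 1.11 (0.89 to 1.33), and in classical monocyte-like cells 1.26 (1.10 to 1.42). Under other clusterings and cell filters these monocyte ratios went as low as 0.49 in nonclassical and 0.45 in classical monocyte-like cells. Every interval here takes UMIs as independent and is too narrow where few cells held most of them. The 10% of cDC2-like cells with the most Hspa1a held 84.1% of its UMIs in NAV and 88.9% in MOCK. In classical monocyte-like cells these shares were 92.3% in NAV and 94.4% in MOCK, and in NAV cycling-like cells 85.9%. Single NAV cells held 134 of the 747 cycling-like UMIs and 108 of the 838 cDC2-like ones.

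Macrophage-like cells had the smallest of these 10 ratios, 0.64 (0.59 to 0.69), with 0.21 when the libraries were clustered apart and 0.82 when NAV clusters were reweighted to the MOCK makeup. Within their 4 clusters Hspa1a was higher in NAV each time. The Vcam1 and Mmp13 cluster held 1517 CPM in NAV and 556 CPM in MOCK, and the Ms4a7 and Slco2b1 cluster 1113 CPM in NAV and 931 CPM in MOCK. The Arg1 and Gpnmb cluster held 447 CPM in NAV and 293 CPM in MOCK, and the Fcrls and Tmem119 cluster 375 CPM in NAV and 209 CPM in MOCK. The 2 clusters with the lowest levels were the largest of the class in NAV (Arg1 and Gpnmb) and in MOCK (Fcrls and Tmem119).

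Among lymphocytes and neutrophils the ratios differed by class. In gd T/T17-like cells both genes were higher in NAV under every alternative. Hspa1a was at 84.3 CPM in NAV and 34.4 CPM in MOCK there, a ratio of 1.29 (0.27 to 2.40, and 0.55 to 1.52 over the alternatives), on 28 UMIs in NAV and 12 in MOCK. Hspa1b was at 186.7 CPM in NAV and 74.6 CPM in MOCK, with 1.32 (0.64 to 2.04, and 1.25 to 1.60 over the alternatives), and 19 of its 62 NAV UMIs and 20 of its 26 MOCK UMIs were in 1 cell each. In B-like cells both ratios were below 0 under every alternative. Hspa1a was there at 50.3 CPM in NAV and 66.0 CPM in MOCK, a log2 ratio of -0.39 (-0.83 to 0.05), and Hspa1b was at 60.5 CPM in NAV and 115.3 CPM in MOCK, giving -0.93 (-1.30 to -0.57) on the same scale. Of the Hspa1b UMIs, 27 of 107 in NAV and 52 of 159 in MOCK were in 1 cell each, so that interval is too narrow. There were none in 1146 of 1174 NAV cells and in 997 of 1022 MOCK cells. In CD8 T-like cells Hspa1a was at 182.9 CPM in NAV and 202 CPM in MOCK (-0.15, -0.57 to 0.28) and Hspa1b at 222 CPM in NAV and 344 CPM in MOCK (-0.63, -0.99 to -0.28). The CD8 T-like values changed direction with the clustering. For Hspa1a they ran from -0.94 to 1.71 over the alternatives, and for Hspa1b they turned to 0.83 with a stricter cell filter, 0.68 with the libraries clustered apart and 0.98 with the heat shock genes in the clustering. In NK-like cells Hspa1a had a ratio of 2.13 (1.5 to 2.83, and 0.45 to 4.19 over the alternatives), on 182 UMIs in 21 of 302 NAV cells and 23 UMIs in 7 of 149 MOCK cells. The Hspa1b ratio of NK-like cells, 1.13 (0.69 to 1.59), became -0.98 with finer clusters. Neutrophil-like cells gave 1.29 (0.82 to 1.78) for Hspa1a, on 66.6 CPM in NAV and 27.2 CPM in MOCK, but -1.32 with the stricter filter, -0.80 with finer clusters and -1.51 with the libraries clustered apart. The value of 1.29 leaves out the unnamed clusters split from the same set of cells. Of these, the Inhba and Ero1l and the Siglecf and Ccl3 clusters had less Hspa1a in NAV, and the Il23a and Tnf cluster had more (42.4 CPM in NAV and 27.8 CPM in MOCK). No direction is therefore given for either gene in neutrophil-like and CD8 T-like cells, nor for Hspa1b in NK-like cells.

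Hspa1b was at least 1.5-fold higher in NAV in 9 classes, 2 of which (NK-like and neutrophil-like cells) reversed under other clusterings, as were 0.148% of all genes measured in every class. It was highest in Kupffer-like cells in NAV, while in MOCK CD8 T-like, macrophage-like and Kupffer-like cells held 344, 338 and 320.5 CPM, with overlapping intervals between neighbours. Its log2 ratio was 1.69 (1.59 to 1.79) in Kupffer-like cells, with 1033 CPM in NAV and 320.5 CPM in MOCK. It was 1.65 (1.44 to 1.87) in nonclassical monocyte-like cells, 1.46 (1.25 to 1.68) in cDC2-like cells and 2.81 (2.25 to 3.43) in cDC1-like cells. The cDC1-like ratio went as low as 1.69 over the alternatives. Its MOCK counts were 28 UMIs, 16 of them in 1 cell, with none in 73 of 80 cells, so that interval is too narrow. So is the cDC2-like one, with 113 of 777 NAV UMIs in 1 cell. The Hspa1b ratio reached 0.52 (0.45 to 0.58) in macrophage-like cells, under 1.5-fold, and 0.05 there when the libraries were clustered apart. Over the 24 points of class and library, the log2 levels of Hspa1a and Hspa1b had a Pearson r of 0.92. These points share 2 libraries and differ in depth, and no p is given for this or the other correlations.

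Hspa1a transcripts were unevenly spread over cells. The 10% of macrophage-like cells with the most Hspa1a held 76.1% of its UMIs in NAV and 80.1% in MOCK, and in Kupffer-like cells 48.4% in NAV and 53.8% in MOCK. The share of cells with a UMI was compared after each cell was thinned to 1300 UMIs. In Kupffer-like cells 130 of 231 NAV cells (56.3%, 49.6 to 62.8) and 292 of 818 MOCK cells (35.7%, 32.4 to 39.1) had a Hspa1a UMI. Unthinned shares were 76.4% in NAV and 65.6% in MOCK. Thinning left out shallower cells, 6 Kupffer-like cells in NAV and 29 in MOCK, but 1148 neutrophil-like cells in NAV and 782 in MOCK.

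Nonclassical monocyte-like cells had a Hspa1a UMI in 103 of 675 NAV cells (15.3%, 12.6 to 18.2) and in 20 of 339 MOCK cells (5.90%, 3.64 to 8.96). Macrophage-like cells had one in 26.3% (24.0 to 28.8) of NAV cells and 19.5% (18 to 21.0) of MOCK cells, and cDC2-like cells in 16.8% (13.4 to 20.6) of NAV cells and 9.89% (6.98 to 13.5) of MOCK cells. Unthinned, the nonclassical monocyte-like shares were 25.8% in NAV and 11.7% in MOCK, the macrophage-like ones 38.5% in NAV and 34.8% in MOCK and the cDC2-like ones 25.6% in NAV and 19.1% in MOCK. B-like cells were lowest in NAV, at 1.96% (1.05 to 3.32), against 1.48% (0.60 to 3.02) in MOCK. No class is known to lack the gene, so a level set by free RNA alone cannot be given. The exact binomial intervals of NAV and MOCK were apart in Kupffer-like, macrophage-like, classical monocyte-like and nonclassical monocyte-like cells and overlapped in the other 8 classes.

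**Figure D2:**
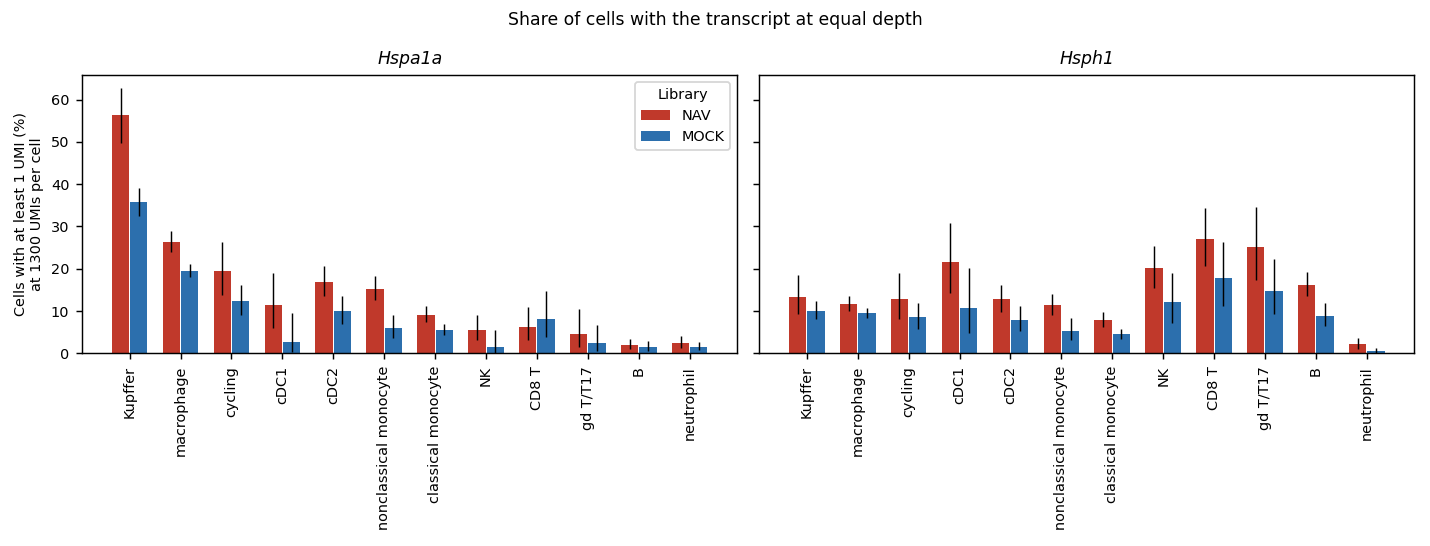
Share of cells (%) with at least 1 UMI of Hspa1a (left) and Hsph1 (right) after thinning each cell to 1300 UMIs, NAV in red and MOCK in blue, with exact binomial 95% intervals. Kupffer-like cells have the highest Hspa1a shares, 56.3% in NAV and 35.7% in MOCK, while the highest Hsph1 shares are in CD8 T-like and gd T/T17-like cells.

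Hsph1, the HSP110 that recycles HSP70, was higher in NAV in all 12 classes. Its log2 ratio lay between 0.41 (0.28 to 0.54) in macrophage-like cells and 2.23 (1.62 to 2.90) in cDC1-like cells, its interval lay above 0 in all 12 classes, and 11 of the 12 ratios reached 1.5-fold. Over all genes measured in every class, 0.0492% reached this fold in 11 or more classes. The ratio stayed above 0 in every class under each alternative that gave a value, with extremes of 0.18 and 2.28. Outside these 12 classes the direction was mixed, but the lower values rest on few UMIs. Among the 6 unnamed clusters described below, Hsph1 was at least 1.5-fold higher in NAV in 2 and at least 1.5-fold lower in 3. In the Inhba and Ero1l cluster, at 22.7 CPM in NAV and 50.6 CPM in MOCK, Hsph1 was below the minimum of 20 UMIs over both libraries. The other lower values, in the Il23a and Tnf and the Siglecf and Ccl3 clusters, were at or little above this minimum. Unlike Hspa1a, Hsph1 was highest in CD8 T-like cells, at 339 CPM in NAV and 226 CPM in MOCK. Its B-like level was 178.8 CPM in NAV and 82.7 CPM in MOCK, a log2 ratio of 1.11 (0.80 to 1.43), in the class where Hspa1b went the other way. Its cDC1-like level was 251 CPM in NAV and 53.5 CPM in MOCK. At 1300 UMIs per cell, 108 of 664 NAV B-like cells (16.3%, 13.5 to 19.3) and 42 of 474 MOCK B-like cells (8.86%, 6.46 to 11.8) had a Hsph1 UMI, and unthinned 16.2% in NAV and 8.61% in MOCK.

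Dnajb1, an HSP40 that drives the HSP70 cycle and is itself a heat shock gene, was past the fold in fewer classes. It was at least 1.5-fold higher in NAV in 3 classes. These were cDC1-like cells (176.5 CPM in NAV and 64.2 CPM in MOCK, log2 ratio 1.46, 0.87 to 2.09), cDC2-like cells (108.2 and 52.1 CPM in NAV and MOCK, 1.05, 0.70 to 1.42) and Kupffer-like cells (172.2 and 107.8 CPM in NAV and MOCK, 0.68, 0.46 to 0.89). The Kupffer-like ratio was under 1.5-fold with the stricter cell filter, at 0.57, and in cells thinned to 1300 UMIs, at 0.29. In 6 classes its interval held 0, with ratios from -0.31 in gd T/T17-like cells to 0.39 in NK-like cells. The NK-like ratio ran from -0.42 to 0.62 over the alternatives. The level was highest in CD8 T-like cells, at 220.2 CPM in NAV and 221 CPM in MOCK, and NK-like cells followed with an overlapping interval in each library.

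Hsp90aa1, the inducible cytosolic HSP90, was higher in NAV in all 12 classes, with every interval above 0. Its log2 ratios ran from 0.34 (0.23 to 0.45) in B-like cells to 0.95 (0.83 to 1.07) in nonclassical monocyte-like cells, and 7 of them reached 1.5-fold. Over all genes measured in every class, 0.369% were at least 1.5-fold higher in 7 or more classes, and 13 of the 4061 genes (0.32%) had an interval above 0 in all 12. Nonclassical monocyte-like cells held 935 CPM in NAV and 485 CPM in MOCK, and Kupffer-like cells 1221 CPM in NAV and 721 CPM in MOCK. CD8 T-like cells held the most, 1392 CPM in NAV and 963 CPM in MOCK, and neutrophil-like cells the least, 499 CPM in NAV and 304 CPM in MOCK. The ratio was -0.09 in NK-like cells with finer clusters and 0.0066 in neutrophil-like cells with NAV clusters reweighted to the MOCK makeup, and it stayed above 0 in the other classes under each alternative that gave a value.

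Hsp90ab1, the constitutive HSP90, was within 1.5-fold in all 12 classes. Its interval lay above 0 in 9 of them, and the log2 ratios ran from -0.05 in NK-like and cycling-like cells to 0.47 (0.38 to 0.56) in nonclassical monocyte-like cells. Levels were high in most classes, such as 2381 CPM in NAV and 2060.1 CPM in MOCK in CD8 T-like cells. Neutrophil-like cells stood far below the rest with 276 CPM in NAV and 202.6 CPM in MOCK, below classical monocyte-like cells with 857 CPM in NAV and 827 CPM in MOCK.

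Hspa8, the constitutive HSP70 that also strips clathrin from vesicles, went the other way. It was at least 1.5-fold lower in NAV in all 12 classes, with log2 ratios from -1.01 (-1.05 to -0.98) in macrophage-like cells to -0.59 (-0.67 to -0.51) in nonclassical monocyte-like cells. Macrophage-like cells held 1075 CPM in NAV and 2168 CPM in MOCK, Kupffer-like cells 1322 CPM in NAV and 2120.0 CPM in MOCK, and CD8 T-like cells 1033 CPM in NAV and 1881 CPM in MOCK. B-like and neutrophil-like cells were lowest, with 352 and 206.1 CPM in NAV, against 608 and 338 CPM in MOCK. Its UMIs were spread over cells, with 31.8% of them in NAV and 25.6% in MOCK in the 10% of macrophage-like cells that held most, and the median macrophage-like cell held 4 UMIs in NAV and 10 in MOCK. Under each alternative that gave a value the ratio stayed below 0 in all 12 classes, between -1.29 and -0.42.

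Hspa8 shared its direction with a wider set. Of the 4061 genes measured in every class, 50 (1.23%) were at least 1.5-fold lower in NAV in all 12, and Hspa8 had the smallest median difference of the 50. In the last 500 transcript bases the median GC content was 53.6% for the 50 genes and 41.6% for all measured, and it was 46.6% for Hspa8, in the eighth decile. The 408 genes of that decile had class medians from 0.03 to 0.37. The part of GC content, and of the sequence shared with other annotated genes, in the Hspa8 difference was not tested.

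The mitochondrial chaperonin pair Hspd1 (HSP60) and Hspe1 (HSP10) passed the fold in few classes. Hspd1 was at least 1.5-fold higher in NAV in cDC1-like cells (315 CPM in NAV and 137 CPM in MOCK, log2 ratio 1.2, 0.79 to 1.63), in cDC2-like cells (146.1 and 93.8 CPM in NAV and MOCK, 0.64, 0.36 to 0.92) and in neutrophil-like cells (35.0 and 19.8 CPM in NAV and MOCK, 0.82, 0.23 to 1.43). The last of these became -0.36 when NAV clusters were reweighted to the MOCK makeup. Hspe1 reached the fold in B-like cells (225 CPM in NAV and 145.0 CPM in MOCK, 0.63, 0.39 to 0.89) and in neutrophil-like cells (25.6 and 11 CPM in NAV and MOCK, 1.23, 0.47 to 2.03). Of all genes, 11.9% were higher by this fold in cDC1-like, 7.86% in cDC2-like, 4.78% in B-like and 35.6% in neutrophil-like cells. The all-gene median in neutrophil-like cells was 0.34, so passing the fold there was common. The share of all genes past the fold in as few classes is not given here. The levels of Hspd1 and Hspe1 followed each other over the 24 points with r = 0.92, and Hspe1 followed Hsp90ab1 with r = 0.96.

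**Figure D3:**
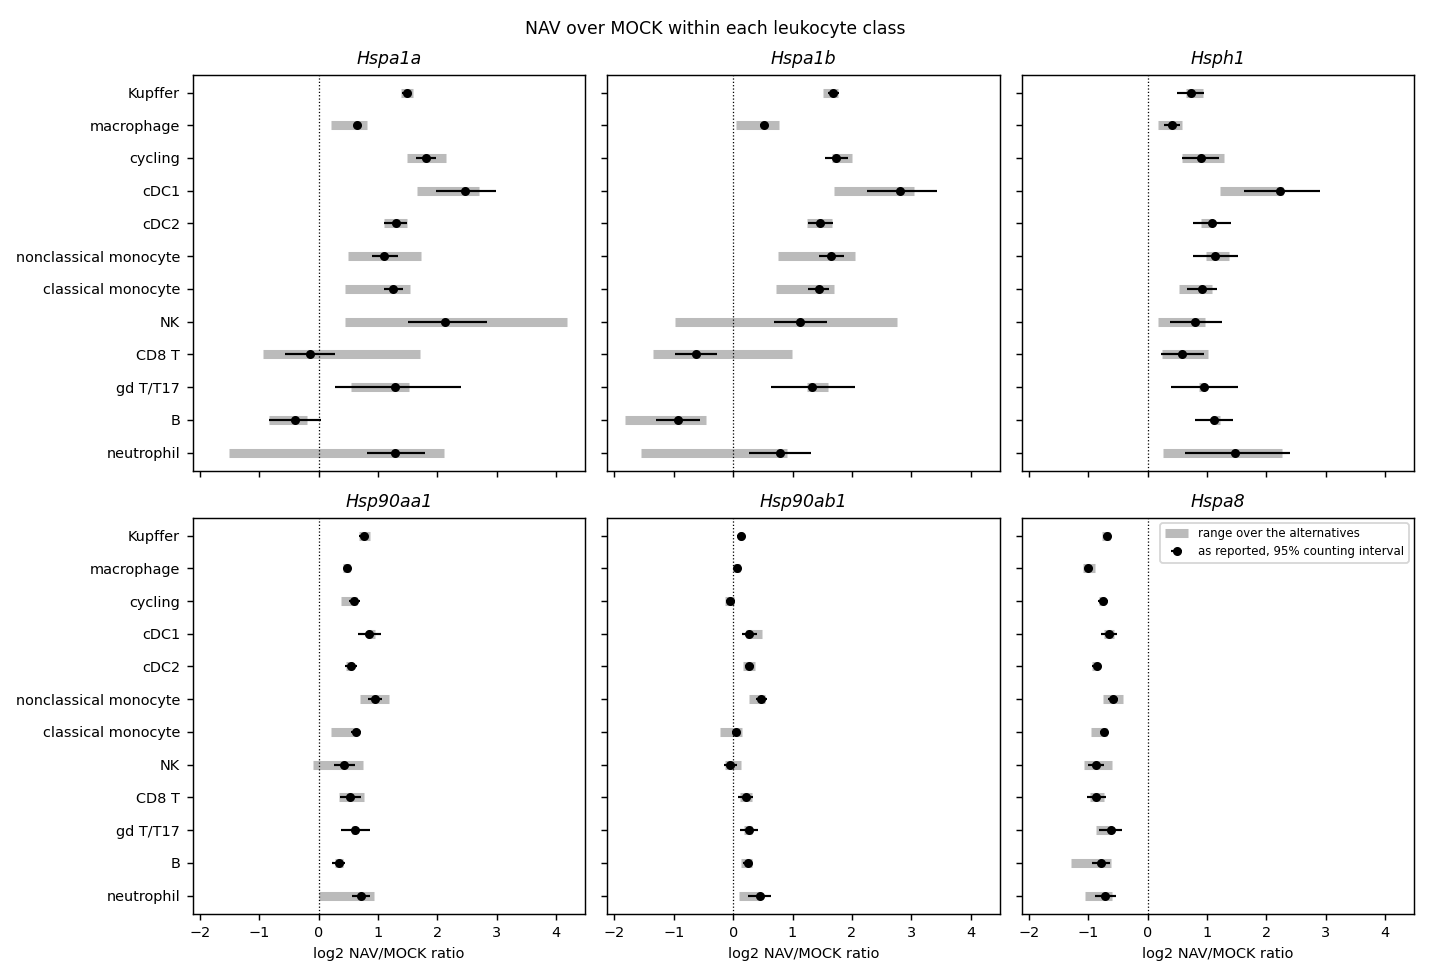
log2 NAV/MOCK ratio of 6 genes in 12 classes: black points with 95% counting intervals, and grey bars for the lowest and highest value over the alternatives. Points right of the dotted line are higher in NAV. The bars of Hsph1 stay right of 0 and those of Hspa8 left of 0 in every class, while those of Hspa1a cross 0 in CD8 T-like and neutrophil-like cells.

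The 6 unnamed clusters gave a mixed picture. In the Tmem176b and Vdr cluster, where 7.38% of all genes were at least 1.5-fold higher in NAV and 12.9% at least 1.5-fold lower, Hspa1a stood at 226 CPM in NAV and 99.6 CPM in MOCK (log2 ratio 1.18, 0.90 to 1.46), and Hsp90aa1 at 945 CPM in NAV and 602 CPM in MOCK. In the Cxcl9 and Iigp1 cluster, with 14.5% of genes higher and 19.1% lower, Hspa1b was the 1 member at least 1.5-fold higher (0.67, 0.33 to 1.01) and Hspa8 the 1 at least 1.5-fold lower (-0.64, -0.80 to -0.49). Hspa1a (0.54, 0.29 to 0.79) and Hsp90ab1 (0.26, 0.10 to 0.42) were higher there by less. The Inhba and Ero1l cluster, with 27% of genes higher and 13.8% lower, went the other way. Hspa1a stood there at 82.2 CPM in NAV and 1079 CPM in MOCK, and Hsp90aa1 at 901 CPM in NAV and 2259 CPM in MOCK. The Siglecf and Ccl3 cluster, with 13% of genes higher and 11.7% lower, held Hspa1a at 33.4 CPM in NAV and 516 CPM in MOCK. In both, a few MOCK cells held the counts, with up to 65 Hspa1a UMIs in 1 of 96 cells and up to 63 in 1 of 269. The other two were thinly counted. In the Dennd1a and Lrmda cluster (22.2% of genes higher and 22.3% lower) Hsph1 had 28 UMIs in NAV and 7 in MOCK. In the Il23a and Tnf cluster (27.6% higher and 15.9% lower) Hsph1 had 17 UMIs in NAV and 3 in MOCK. NAV had far more cells than MOCK in the latter cluster. In CPM, Hsph1 was at least 1.5-fold higher in NAV in the former cluster and at least 1.5-fold lower in the latter.

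The median log2 ratio over the 9 members was above that of all measured genes in each of the 12 classes. It was highest in cDC1-like cells, at 1.2 against -0.01 for all genes, and lowest in B-like cells, at 0.20 against -0.07. In Kupffer-like cells it was 0.68 against -0.03, and in neutrophil-like cells 0.78 against 0.34. The medians over the members moved with the processing. The Kupffer-like one was 0.34 in cells thinned to 1300 UMIs, the neutrophil-like one 0.0066 with NAV clusters reweighted to the MOCK makeup, and the NK-like one, 0.39 as reported, was 0.0096 with the stricter filter and -0.080 with finer clusters.

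The members were then read within single cells, thinned to 1300 UMIs and grouped by their sum of Hspa1a and Hspa1b UMIs. In macrophage-like cells with no, 1 to 2 and 3 or more such UMIs, Hsp90aa1 averaged 1.06, 1.51 and 3.53 UMIs per cell in NAV and 0.86, 1.23 and 3.27 in MOCK. Of NAV macrophage-like cells 15.6% had 3 or more, against 9.78% in MOCK, and of Kupffer-like cells 42.4% in NAV against 14.3% in MOCK. In the 5 classes with at least 10 such cells in each library, Hsp90aa1 was 2.28 to 4.67 times as high in cells with 3 or more as in cells with none. Hsph1 was 2 to 16.5 times, Dnajb1 1.46 to 11.9 times and Hspa8 1.46 to 2.7 times as high, in both libraries. Hspe1 and Hspd1 were higher in 9 of 10 class and library pairs each. The immediate early genes Fos, Jun and Atf3, which respond within minutes to stress and to tissue dissociation, were also higher in all 10, by 2.23 to 7.58, 3.17 to 8.97 and 3.21 to 18.4 times. Only these 3 of the 18 immediate early genes listed below are given in this way. How many of all genes were higher in cells with 3 or more is not given, so the counts do not set the members apart. These are descriptions of cells within 1 library, without a test.

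Differences between libraries in Hsp90aa1, Hsph1 and Hspa8 were also present in cells without Hspa1a or Hspa1b UMIs after thinning. Not all such cells lacked them before thinning. In MOCK, 455 Kupffer-like cells held neither after it, while 291 of 847 had no Hspa1a UMI before it. In cells without these UMIs after thinning, the mean of Hsp90aa1 was higher in NAV in 12 of 12 classes, and so was that of Hsph1. The mean of Hspa8 was lower in NAV in 12 of 12. Means of Dnajb1 and Hspd1 were each higher in NAV in 9 classes and lower in 3. For Hsp90ab1 this was 8 and 4, and for Hspe1 7 and 5. The shares of all genes with such counts in these thinned cells are not given here. Over whole classes, unthinned, 3.08% of the 4061 genes measured in every class had a ratio above 0 in all 12 and 3.89% below 0. Macrophage-like cells of this kind held 1.06 Hsp90aa1 UMIs per cell in NAV and 0.86 in MOCK, and 1.09 Hspa8 UMIs in NAV and 2.56 in MOCK. Nonclassical monocyte-like cells held 0.94 Hsp90aa1 UMIs in NAV and 0.50 in MOCK. B-like cells held 0.22 Hsph1 UMIs in NAV and 0.09 in MOCK.

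**Figure D4:**
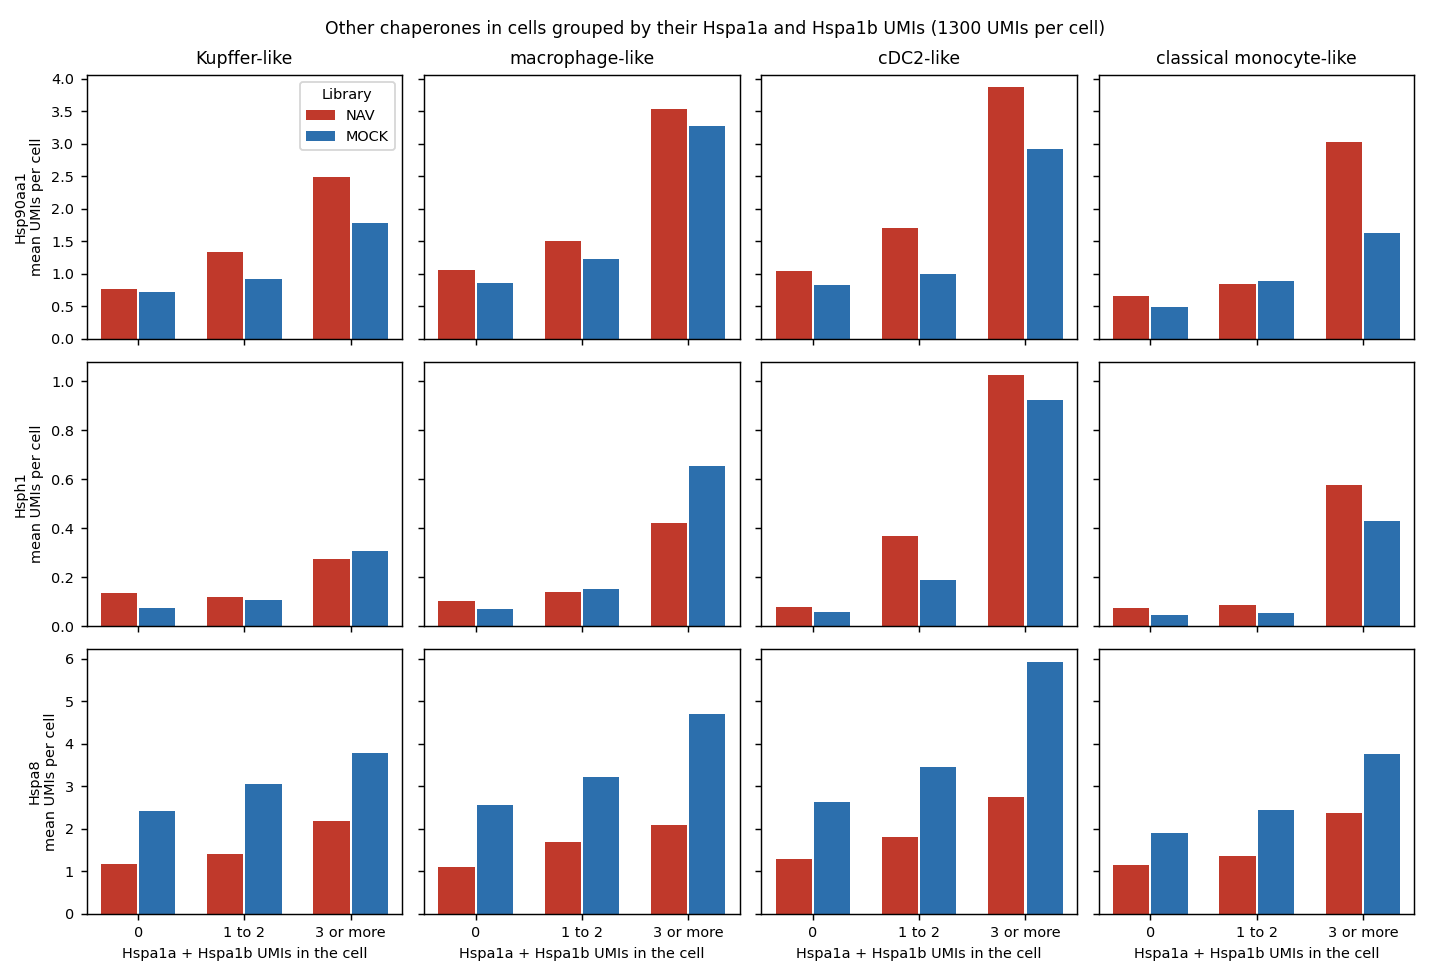
Mean UMIs per cell of Hsp90aa1, Hsph1 and Hspa8 (rows) in cells thinned to 1300 UMIs and grouped by their sum of Hspa1a and Hspa1b UMIs, for 4 classes (columns), NAV in red and MOCK in blue. All 3 genes are highest in the cells with 3 or more, and Hspa8 is lower in NAV in every group shown.

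Immediate early genes as a list were lower in NAV in most classes. The median log2 ratio of the list was below 0 in 10 of the 12 classes, and its summed level was lower in NAV in 10, with B-like and Kupffer-like cells the exceptions. In macrophage-like cells 0 of the 18 genes were at least 1.5-fold higher in NAV and 1 was at least 1.5-fold lower. Of all genes in this class 5.73% were higher and 12.7% lower by this fold. Of the 214 gene-by-class ratios of the 18 listed genes, 15 (7.01%) were at least 1.5-fold higher in NAV and 26 (12.1%) at least 1.5-fold lower. Over all genes these shares were 10% and 13.4%, so ratios past the fold lower were no more frequent in the list. The list's median ranged from -0.49 in gd T/T17-like cells to 0.21 in Kupffer-like cells, and was close to 0 in some classes, such as -0.0047 in classical monocyte-like cells. The median of all measured genes in that class was lower, at -0.014, and in cycling-like cells list and all genes were both at -0.039. In these classes the list was therefore not below all genes. The summed level was 19024 CPM in NAV and 17223 CPM in MOCK in Kupffer-like cells, and 13651 CPM in NAV and 16778 CPM in MOCK in macrophage-like cells. Fosb was at least 1.5-fold lower in 9 classes and Ier2 in 4, while Egr1, measured in 11 classes, and Atf3 were at least 1.5-fold higher in 6 each. Of all genes measured in every class, 3.08% were at least 1.5-fold lower in 9 or more classes and 0.689% at least 1.5-fold higher in 6 or more. The share for 4 classes is not given here. Depth differed between the libraries as well. Median UMIs per Kupffer-like cell were 6123 in NAV and 7139 in MOCK, and the mitochondrial share was 3.94% in NAV and 3.71% in MOCK. The part of digestion, depth and library in the chaperone differences was not tested, and treatment and library cannot be told apart.

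Marker lists of cells outside the sort were summed in each of the 12 classes. Hepatocyte markers were at 8.49 to 753 CPM in NAV and at 12.3 to 893 CPM in MOCK, and higher in NAV in 2 classes. Markers of bile duct and tumour epithelium were at 21.1 to 2643 CPM in NAV and at 14.3 to 1206 CPM in MOCK, and higher in NAV in 9 classes. That list holds Spp1, which macrophages express too, while the duct keratin gene Krt19 and the claudin gene Cldn4 were at 0 in all 12 classes in NAV, and Cldn4 was at 0 in all 12 in MOCK. Endothelial markers were higher in NAV in 11 classes, at 15.4 to 516 CPM in NAV and 9.19 to 514 CPM in MOCK.

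Erythroid markers were higher in NAV in 9 classes, at up to 646 CPM in NAV and 599 CPM in MOCK, both in NK-like cells. Of this list, 7 of 8 genes, all its globin genes among them, were at 0 in all 12 classes in NAV, which leaves Car2, a gene among the leading ones of the NK-like clusters. Platelet markers were higher in NAV in 5 classes, at up to 305 CPM in NAV and 267 CPM in MOCK, with Gp9 and Gp1bb at 0 in all 12 classes in both libraries. Stellate and fibroblast markers stayed at or below 18.2 CPM in NAV and 20.2 CPM in MOCK, and were higher in NAV in 1 class. The part of such RNA in the chaperone results was not tested.

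The counts of other chaperone genes past the fold are set here beside the shares over all genes, 10% of gene-by-class ratios higher and 13.4% lower. The median of the gene medians was 0.09 for co-chaperones, 0.14 for TRiC, 0.18 for endoplasmic reticulum chaperones, -0.14 for mitochondrial chaperones, 0.22 for heat shock factors and -0.19 for immediate early genes, while the median over all measured genes ran from -0.07 to 0.34 across the classes. Of 300 ratios of the 30 measured co-chaperones and other HSF1-linked chaperones, 45 (15%) were at least 1.5-fold higher in NAV and 54 (18%) at least 1.5-fold lower. The list's summed level was higher in NAV in 12 of 12 classes. Stip1, the adaptor that joins HSP70 to HSP90, was higher in 10 classes, with a median log2 ratio of 0.77 and, for example, 130.5 CPM in NAV and 76.5 CPM in MOCK in Kupffer-like cells. Stub1, a ubiquitin ligase for chaperone clients, was lower in all 10 classes where it was measured (median -1.49). Fkbp5, an HSP90 partner of steroid receptors, was lower in 10 of 12 (median -0.85), and so was Cdc37, which brings kinases to HSP90 (median -0.83). Of all genes measured in every class, 2.56% were at least 1.5-fold lower in 10 or more classes and 0.123% at least 1.5-fold higher.

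The TRiC chaperonin, which folds actin and tubulin, had 8 ratios of 96 (8.33%) at least 1.5-fold higher and 12 (12.5%) lower. All 12 lower ones were of Cct7, at a median of 18.6 CPM in NAV and 98.6 CPM in MOCK (-2.38), while no other subunit was lower by this fold in any class and Cct6a was higher in 3. Mitochondrial chaperones had 13 of 107 (12.1%) higher and 22 (20.6%) lower, with the protease Lonp1 lower in 7 classes and the HSP90 relative Trap1 lower in 7. Endoplasmic reticulum chaperones had 18 of 187 (9.63%) higher and 7 (3.74%) lower, among them Hsp90b1, the HSP90 of that compartment, higher in 3 classes with its interval above 0 in all 12 (911 CPM in NAV and 732 CPM in MOCK at the median). Of the heat shock factors and their regulators, Hsf1 was measured in 9 classes, at a median of 12.7 CPM in NAV and 11.2 CPM in MOCK, and was at least 1.5-fold higher in 1 and lower in 2.

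For each gene the most similar patterns over the 24 points were sought among 4052 other genes, by Pearson's r of log2(CPM + 10). Hspa1a was most like Anxa5, encoding the phospholipid-binding annexin A5 (r = 0.84), and Hspa1b most like Tubb2a, a beta-tubulin (0.77). Hspa8 was closest to Igbp1 (0.92), Hsph1 to Cops8, a COP9 signalosome subunit (0.88), and Dnajb1 to Ubb, a polyubiquitin gene (0.79). The nearest to Hsp90aa1 were Stip1 and Cacybp (0.90 each), and to Hsp90ab1 Chordc1, an HSP90 co-chaperone, and Eif4b, a translation factor (both 0.96). Hspe1 was nearest to Tbca, a tubulin folding cofactor, and Npm1, nucleophosmin (both 0.97), and Hspd1 to Cacybp (0.94) and the TRiC subunit Cct3 (0.93). Second places went to Abhd12 for Hspa1a (0.80), Insig1 for Hspa1b (0.76), Sdhc for Hspa8 (0.88), Chordc1 for Hsph1 (0.87) and Plaat3 for Dnajb1 (0.76).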

How the data were processed

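Deposited by the authors were whole-number counts of UMIs for every gene and barcode, in 1 table per library. The submitters' processing notes name mm10 as the build and Cell Ranger, STARsolo 2.7.10a and fastp as tools, without their roles. No barcode had under 500 UMIs. A barcode was kept with 500 or more UMIs, 200 or more genes and a mitochondrial share under 20%, which removed 24 NAV and 93 MOCK barcodes. Scrublet's automatic threshold marked 0 NAV barcodes and 1 MOCK barcode and had not worked, so barcodes scoring above 0.25 (174 NAV and 176 MOCK) and clusters with a median score above 0.10 (193 NAV and 242 MOCK barcodes) were removed. This left 10074 NAV and 10352 MOCK cells. Both libraries were clustered together in scanpy 1.11.5 (2000 variable genes, 30 principal components, 15 neighbours, Leiden resolution 1.0) without batch correction, leaving the heat shock genes and list genes out, a choice made after seeing the data. Classes were named from marker lists.

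UMIs were summed per class and library and divided by the class total. The log2 NAV/MOCK ratio has an exact conditional binomial 95% interval, a level an exact Poisson interval, and a share of cells an exact Clopper-Pearson interval. UMIs of 1 cell are not independent. The ratio code was tested on simulated data. The genes named are the 9 members, up to 4 genes per list past 1.5-fold the same way in most classes, and the 2 most similar genes per member. Members, lists and tests were chosen with earlier results of these data known. Alternatives were other cell filters, doublets, cluster resolutions, clusterings, scalings, weights, denominators, class makeups, depths, folds and UMI minimums.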

Additional observations from a re-analysis of the deposited data

Results flagged for a closer look

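Some ratios with an interval off 0 were at least 1.5-fold lower in NAV while the same gene was at least 1.5-fold higher in more of the other classes and clusters. None of these differences was tested. Hspa1b had a log2 NAV/MOCK ratio of -0.93 in B-like cells, below 0 under every alternative, against 11 classes or clusters at 1.5-fold or more above 0. Of those 11, NK-like and neutrophil-like cells turned below 0 under other clusterings. The B-like ratio leans on few cells, since 52 of the 159 MOCK UMIs of Hspa1b were in 1 cell and 997 of 1022 MOCK cells had none. The Hspa1b ratio was -0.63 in CD8 T-like cells and turned above 0 under 3 alternatives, so no direction is given there. In the unnamed cluster led by Inhba and Ero1l the log2 NAV/MOCK ratio was -3.72 for Hspa1a, -3.49 for Hspa1b and -1.33 for Hsp90aa1. In the unnamed cluster led by Siglecf and Ccl3 it was -3.95 for Hspa1a, -2.20 for Hspa1b and -0.85 for Dnajb1. In MOCK the Hspa1a counts of these clusters were 128 UMIs in 11 of 96 cells, up to 65 in 1 cell, and 184 UMIs in 10 of 269 cells, up to 63 in 1 cell.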

How the results depend on the processing

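No paired analysis was possible because each group is 1 pooled library. Hspa8, Hsph1, and Hspa1a and Hspa1b in Kupffer-like, cDC1-like, cDC2-like and cycling-like cells kept their direction under every alternative, except that cDC1-like cells gave no value with the libraries clustered separately. Reversed were Hspa1b in CD8 T-like cells (0.83 with the stricter cell filter, 0.68 with libraries clustered separately, 0.98 with the members and list genes in the clustering, an alternative chosen after seeing the data), Hspa1b in NK-like cells (-0.98 at Leiden resolution 2.0, -0.46 with the members in the clustering), Hspa1a in neutrophil-like cells (-1.32 with the stricter filter, -0.80 at resolution 2.0, -1.51 clustered separately), Hspa1b in neutrophil-like cells (-1.55, -1.15 and -1.43 under the same 3, -0.16 with the members in the clustering, -0.29 reweighted to the MOCK makeup) and Hspd1 in neutrophil-like cells (-0.36 reweighted). This list does not hold every change of sign. Hsp90aa1 in NK-like cells, 0.43 as reported, went down to -0.09, and Dnajb1 there, 0.39 as reported, to -0.42. Dnajb1 also went below 0 in neutrophil-like (-0.16) and nonclassical monocyte-like cells (-0.31). Hspa1a in CD8 T-like cells, -0.15 as reported, went up to 1.71. The cause was not tested.

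The median over the members moved to 0.62 (stricter filter) and 0.64 (members in the clustering) in CD8 T-like cells, 0.34 in Kupffer-like cells (thinned), 0.0096 (stricter filter) and -0.080 (resolution 2.0) in NK-like cells, 0.21 in classical monocyte-like cells (clustered separately), 0.13 (clustered separately) and 0.41 (reweighted) in macrophage-like cells, 0.15 (stricter filter) and 0.0066 (reweighted) in neutrophil-like cells and 0.29 in nonclassical monocyte-like cells (doublets kept). With 2-fold in place of 1.5-fold 26 ratios were higher and 1 was lower. Of the 59 ratios past 1.5-fold, 46 stayed past it in the same direction with the stricter filter and at resolution 2.0, and 39 of 52 with the libraries clustered separately, where 11 classes had enough cells. In classes with few Hspa1a UMIs depth limits the ratio.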
